A study of Homo sapiens with 5 samples.

Results

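The proteasome genes are the protein-coding genes whose symbols join PSMA, PSMB, PSMC, PSMD, PSME, PSMF or PSMG to a number. That rule uses names alone and found 48 of the 60651 genes listed. They comprise 19 core genes, 20 cap genes, 5 genes of activators and an inhibitor, and 4 genes of assembly chaperones. Of the 48, 45 passed the filter on low counts and were tested among 16341 genes. PSMA8, PSMB9 and PSMB11 did not pass.

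Gene-level reads of poly(A)-selected RNA were counted in 5 libraries of COLO 320DM, a human colorectal adenocarcinoma line, each made after transfection of a different small interfering RNA (siRNA). The series asks how USP17, a deubiquitinase, promotes colorectal tumours and links it to beta-catenin. The USP17 siRNA group held the siIDT, sino4 and siSMPLT libraries (n = 3). The control siRNA group held siL2 and siNT (n = 2), which the series names as non-silencing, and the other libraries were taken as USP17-targeting by elimination. Every library comes from the same line, so all cells share its genotype, and no untransfected library was analysed here. There was 1 library per siRNA, and the labels do not say whether the cultures were separate. The p-values therefore measure only how far these libraries spread, which may be technical and may come in part from the sequence of each siRNA.

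The 26S proteasome degrades proteins that carry ubiquitin chains. Its core is a barrel of outer alpha rings, which gate the entry, and inner beta rings, which hold the cutting sites. A cap on either end binds ubiquitin, removes it and unfolds the substrate with a ring of ATPases. Other activators can take the cap's place, and cytokine-inducible beta subunits can replace the constitutive ones to form the immunoproteasome, which favours peptides for antigen presentation. When the proteasome is inhibited, the transcription factor NRF1 (NFE2L1) raises most subunit genes together. Many cancer cells express these genes at high levels.

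Reads in genes numbered 31704821 to 36276143 per library, and levels are given as CPM, a count scaled by the size of its library. For counting error alone, a library with 0 reads of a gene may still hold up to 3. That equals 0.0827 to 0.0946 CPM on raw library sizes, without the TMM scaling that the other CPM values carry. The 30 USP17L genes, which encode USP17, had 0 reads and 0 expected counts in all 5 libraries, so knockdown could not be checked. Reads outside the gene strands made up 7.05% to 7.49% of reads in the USP17 siRNA libraries and 6.37% to 6.58% in the controls, which do not overlap. Among epithelial markers KRT8 and KRT18 were measured at 60.0 to 76.8 CPM and EPCAM at 1.96 to 2.75 CPM, while CDH1 and CLDN7 had 0 to 6 reads per library. The log2 fold changes were -0.21 for KRT8, -0.14 for KRT18 and 0.18 for EPCAM, and none of these passed. The intestinal factor CDX2 was abundant, at 1652 against 2052 CPM, and fell (log2 fold change -0.31), while CDH17, another intestinal marker, rose from 27.2 to 49.9 CPM (0.88). KRT20 lay at 0.77 without passing the test, and VIL1, CDX1 and HNF4A had 0 to 7 reads per library. Summed epithelial markers lay at 125 to 138 against 140.5 to 156 CPM and summed intestinal markers at 1687 to 1738 against 2036 to 2129 CPM. Neither sum overlapped between the groups. KRT8 and KRT18 made up most of the epithelial sum. CDX2 made up most of the intestinal sum, while the 3 tested intestinal markers had a median log2 fold change of 0.77. The part of the markers in the results was not tested. In RNA from whole cultures, fewer cells of a type and less RNA per cell cannot be told apart.

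Across the proteasome genes, most transcripts were slightly lower with the USP17 siRNAs, and few single genes passed the test. The median log2 fold change (USP17 siRNA over control siRNA) of the 45 tested genes was -0.16, against 0.005 for all genes tested, and 37 of 45 were negative (82.2%, against 49.3% of all genes). Of the 45, PSMB2, PSMB7 and PSMB4 fell and none rose by edgeR's quasi-likelihood test with Benjamini-Hochberg adjustment at 0.05. That is 6.67% lower beside 5.82% of all genes, and 0 higher beside 4.64%, so the number of calls is near the background. At an unadjusted p under 0.05, 18 were lower (40%, against 14.7% of all genes) and 1 was higher (2.22%, against 14.2%). The 3 calls became 0 without the siIDT library, where 1.32% of all genes were called lower, and 0 without sino4, where 0.49% were. With a lone control, the median log2 fold change was -0.12 without siL2 and -0.18 without siNT. With DESeq2's Wald test 8 were called lower (17.8%, against 8.07% of all genes). In 29 genes (64.4%) all 3 USP17 siRNA libraries lay below both controls in CPM, against 22.6% of all genes, and in 1 gene, PSMD5 (2.22%), all lay above, against 23.3%. The groups overlapped in the other 15.

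**Figure D1:**
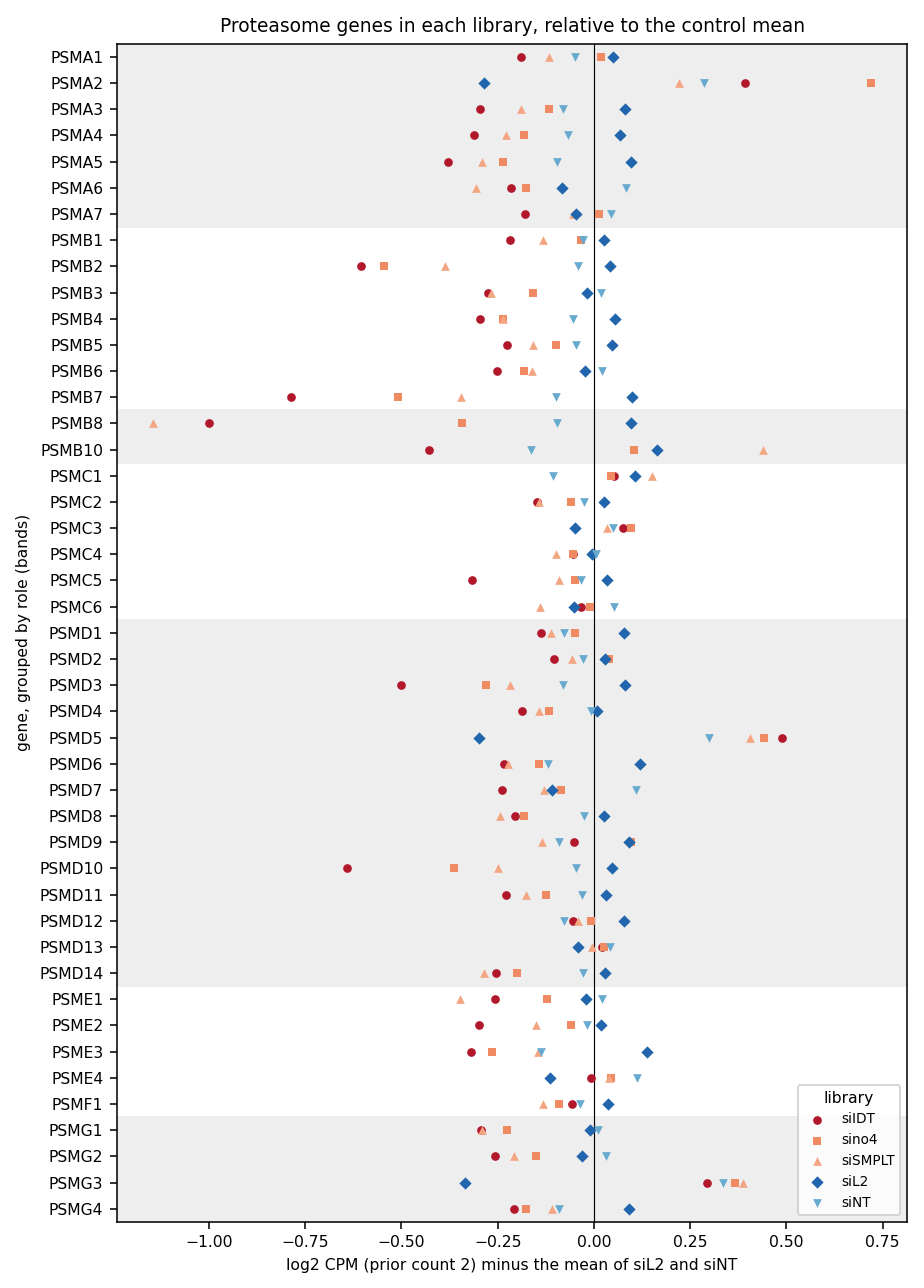
Each row is 1 of the 45 tested proteasome genes and each point 1 library, on the x axis as log2 CPM minus the mean of siL2 and siNT. Most red and orange points (USP17 siRNAs) lie left of 0, siIDT is the lowest library in 28 genes, and PSMA2, PSMD5 and PSMG3 stand out to the right with siL2 far left.

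The libraries did not contribute equally. Relative to the control mean, the median log2 difference over the 45 genes was -0.23 in siIDT, -0.10 in sino4 and -0.14 in siSMPLT, and the controls lay 0.03 to either side. The siIDT library held the lowest value in 28 genes (62.2%, against 21.1% of all genes), siSMPLT in 9, siL2 in 6, siNT in 2 and sino4 in 0. The USP17 siRNA libraries share their controls, so their likeness to each other is not a separate result.

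These genes are abundant, and abundant genes are measured more precisely. At or above a log2 CPM of 5 there were 36 proteasome genes, of which 3 (8.33%) were called lower, against 9.57% of the 6436 genes at that level. All USP17 siRNA libraries lay below both controls in 26 of the 36 (72.2%), against 31.7%. Negative fold changes were found in 32 of 36 (88.9%, against 53.7%), with a median of -0.17 against -0.02. The siIDT library was lowest in 25 of them (69.4%), against 23.9% of genes at that level.

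Summed over whole parts of the particle, the beta rings were lowest relative to the controls and the ATPase ring was nearest to them. TPM values scale reads by transcript length, so levels of different genes can be added. The 7 constitutive beta genes summed to 1432, 1535 and 1543 TPM in siIDT, sino4 and siSMPLT and to 1829 and 1725 TPM in siL2 and siNT. Their mean with USP17 siRNA was 84.6% of the control mean, and the groups did not overlap. PSMB7 (217 against 310 TPM) and PSMB2 (68.3 against 98.95 TPM) fell most among the 7. The 6 ATPase genes summed to 671, 688 and 665 TPM against 691 and 695 TPM, or 97.3% of the control mean. The 4 inducible or tissue-restricted beta genes, with sums of 13.8 to 14.8 against 17.4 and 17.5 TPM, stood at 81.9%, and PSMB10 made up most of these sums. Between the constitutive beta ring and the ATPase ring lay the activators and inhibitor (88.2%), the alpha ring (90.4%), the non-ATPase cap (91.2%) and the assembly chaperones (91.5%). All 48 genes together came to 6387 ± 168 TPM (SD, n = 3) against 7127 ± 124 TPM (SD, n = 2), or 89.6%. Whether one part differed from another was not tested.

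**Figure D2:**
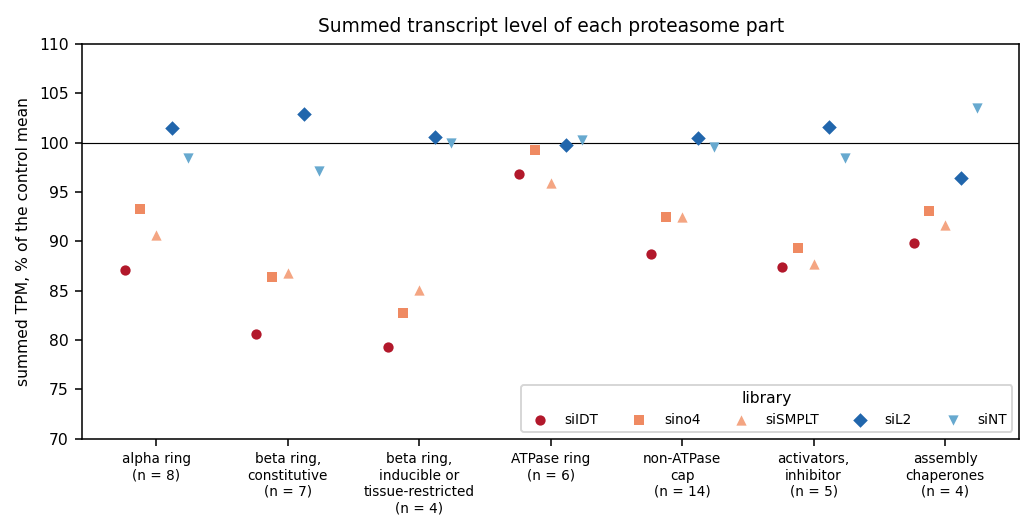
Points give each library's summed TPM for a part of the proteasome, as a percent of the mean of siL2 and siNT (line at 100). The USP17 siRNA libraries lie below both controls in all 7 parts, by most in the beta rings, and the ATPase ring lies nearest to the line.

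The constitutive beta ring held all 3 calls. Its 7 genes encode the catalytic subunits PSMB5, PSMB6 and PSMB7 and the non-catalytic PSMB1, PSMB2, PSMB3 and PSMB4. All 7 had negative fold changes (median -0.23), and siIDT was the lowest library in all 7. All USP17 siRNA libraries lay below both controls in all 7, against 22.6% of all genes and 31.7% of those at or above a log2 CPM of 5.

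PSMB2 (ENSG00000126067, chromosome 1, 35599544 to 35641844, GRCh38) measured 101, 105.5 and 118 CPM in siIDT, sino4 and siSMPLT and 158 and 149.6 CPM in siL2 and siNT. Its highest USP17 siRNA value was well under its lowest control, and the controls were close to each other. The mean fell from 154 ± 6.19 (SD, n = 2) to 108 ± 8.56 CPM (SD, n = 3), or by 0.51 ± 0.08 (SE) on the log2 scale (adjusted p 0.0127, edgeR).

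PSMB7 (ENSG00000136930, chromosome 9, 124353466 to 124415444), which carries the trypsin-like site, measured 110.5, 134 and 150.2 CPM against 204.5 and 178 CPM. The groups did not overlap, but the libraries within them were more spread than for PSMB2, with siIDT lowest. It fell by 0.54 ± 0.12 (SE) on the log2 scale (adjusted p 0.0317, edgeR). Without siIDT it was -0.43 (adjusted p 0.0802, edgeR), and without siL2 -0.44 (0.0675).

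PSMB4 (ENSG00000159377, chromosome 1, 151399534 to 151401944) measured 218, 228 and 228 CPM against 278.5 and 258 CPM. The USP17 siRNA libraries were close together and below both controls. The log2 fold change was -0.26 ± 0.07 (SE), and the adjusted p of 0.0492 (edgeR) lay at the edge of the threshold. The call was lost with expected counts (adjusted p 0.0647), with no filter on low counts (0.0725) and without any 1 library other than siNT.

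The other constitutive beta genes did not pass. PSMB3 had a log2 fold change of -0.23 (adjusted p 0.0927, edgeR) and PSMB6, which carries the caspase-like site, of -0.20 (0.124). PSMB5, the chymotrypsin-like subunit that bortezomib inhibits, measured 145, 159 and 152 CPM against 175.5 and 165 CPM (-0.16, 0.19). PSMB1 was the least shifted at -0.13 (0.313).

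Of the 4 beta genes that are inducible or tissue-restricted, PSMB10 alone exceeded 1 TPM. PSMB8, PSMB9 and PSMB10 replace PSMB5, PSMB6 and PSMB7 in the immunoproteasome, and PSMB11 is a thymus subunit. PSMB8 had 7, 12 and 6 reads in siIDT, sino4 and siSMPLT and 18 and 16 in siL2 and siNT. The groups did not overlap, at a log2 fold change of -0.91 ± 0.39 (SE) and an adjusted p of 0.168 (edgeR). PSMB9 had 2, 1 and 1 reads against 4 and 7, and PSMB11 had 0 in every library, at most 3 reads by the limit above. PSMB10 measured 13.4, 13.9 and 14.4 TPM against 16.7 and 16.5 TPM by expected counts, with every USP17 siRNA library below both controls (log2 fold change -0.26, adjusted p 0.249, edgeR). On gene counts, which hold 12 to 23 reads per library for PSMB10, its groups overlapped (0.08, adjusted p 0.912).

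In the alpha ring none of the 7 tested genes passed, and 6 of 7 had negative fold changes (median -0.20). PSMA5 measured 92.5, 102 and 98.3 CPM against 129 and 113 CPM, and PSMA4 measured 211, 231 and 223 CPM against 274 and 249.7 CPM. Both had every USP17 siRNA library below both controls, with log2 fold changes of -0.30 (adjusted p 0.0568, edgeR) and -0.24 (0.0752). PSMA3 (-0.20), PSMA6 (-0.23), PSMA1 (-0.09) and PSMA7 (-0.07) followed, with adjusted p of 0.166 to 0.6. PSMA8, a germ-cell subunit, had 4, 9 and 9 reads against 7 and 9.

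The ATPase ring unfolds substrates and opens the core. Its 6 genes had a median log2 fold change of -0.07, and none passed. PSMC5 measured 86.9, 105 and 102 CPM against 111 and 106 CPM, with siIDT alone far below the rest (-0.15, adjusted p 0.338, edgeR). PSMC2 had a log2 fold change of -0.12 (0.342). PSMC3 and PSMC4 lay at 0.07 and -0.07.

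Of the 14 non-ATPase cap genes none passed, and 12 had negative fold changes (median -0.15). In 7 of the 14 every USP17 siRNA library lay below both controls, against 22.6% of all genes and 31.7% of those at or above a log2 CPM of 5. The lid, which holds the deubiquitinating subunit PSMD14, had 5 of 8 genes below both controls (median -0.19). PSMD14 measured 128, 133 and 125 CPM against 156 and 149.8 CPM, which is -0.25 on the log2 scale (adjusted p 0.0576, edgeR). The lid scaffold PSMD3 measured 113, 132 and 138 CPM against 169.5 and 151.5 CPM (-0.33, 0.0684). PSMD8 (-0.21), PSMD6 (-0.20) and PSMD11 (-0.18) were close to these, and PSMD12 (-0.04) and PSMD13 (0.01) showed the smallest differences of the lid. The ubiquitin receptor PSMD4 lay at -0.15, and PSMD2 and PSMD1, the large subunits that hold the base together, at -0.04 and -0.10.

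Chaperones that build the cap's base stood at both ends of the range. PSMD10 (gankyrin), which is often overexpressed in liver and colorectal tumours, measured 93.2, 113 and 122 CPM in siIDT, sino4 and siSMPLT and 150.0 and 141 CPM in siL2 and siNT. Its groups did not overlap, siIDT was lowest, and the adjusted p of 0.0514 (edgeR) just missed the threshold (log2 fold change -0.41 ± 0.11, SE). PSMD5, which holds the ATPase PSMC2 during assembly, measured 97.1, 94.0 and 91.7 CPM against 56.2 and 85.2 CPM. All 3 USP17 siRNA libraries were above both controls, but most of the distance is to siL2, and siNT lies near them (0.41 ± 0.15, SE, adjusted p 0.117, edgeR). PSMD9 had a log2 fold change of -0.03.

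PSME1 and PSME2 encode PA28-alpha and PA28-beta, which together cap the core in antigen processing. PSME1 measured 92.8, 102 and 87.2 CPM against 109 and 112.5 CPM, without overlap (log2 fold change -0.24, adjusted p 0.106, edgeR). PSME2 lay at -0.17 (0.258). PSME3, the nuclear activator PA28-gamma, measured 198, 206 and 223 CPM against 272 and 225 CPM, where siSMPLT and siNT almost touch (-0.25, 0.131). PSME4 (PA200) lay at 0.02 and the inhibitor PSMF1 at -0.09.

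The PSMG chaperones pair up to assemble the alpha ring. PSMG1 measured 56.1, 58.7 and 56.2 CPM against 68.3 and 69.2 CPM. The spread within each group was small beside the distance between them, but the adjusted p was 0.0524 (edgeR; log2 fold change -0.27 ± 0.07, SE). PSMG2 lay at -0.21 (0.131) and PSMG4 at -0.17 (0.274). PSMG3 measured 27.7, 29.1 and 29.5 CPM against 17.9 and 28.5 CPM, so that siL2 alone lay apart (0.31, 0.274).

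**Figure D3:**
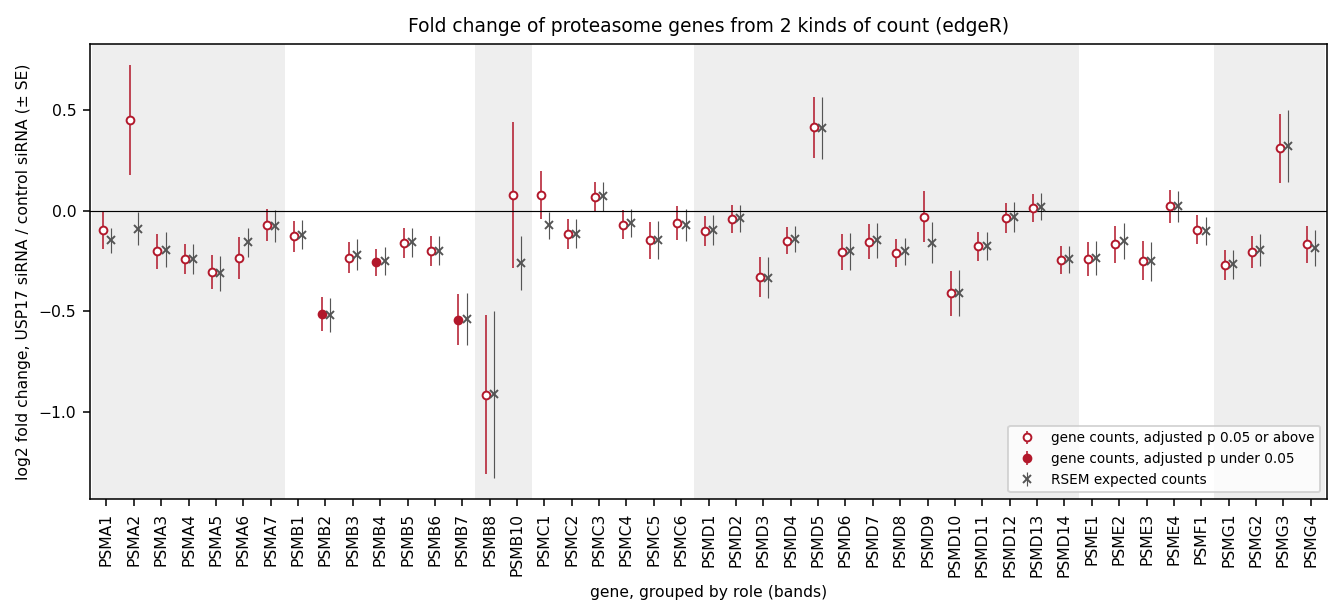
Points are edgeR log2 fold changes with their SE, from gene counts (circles, filled where the adjusted p is under 0.05) and from RSEM expected counts (crosses), for the 45 tested genes in bands by role. Both kinds of count place most genes between 0 and -0.3, and they part widely for PSMA2 and PSMB10.

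In 7 of the 45 genes, gene counts came to under 80% of expected counts. Gene counts leave out reads that fall on several genes or map to several places, while expected counts share them out. The share was 0.98% of expected counts for PSMA2, 7.72% for PSMC1, 9.58% for PSMB10, 13% for PSMA6, 14.6% for PSMA1, 20.4% for PSMD9 and 75.3% for PSMC6. In GENCODE release 29, PSMA1, PSMA2, PSMA6, PSMB10 and PSMD9 overlap another coding gene on their strand, while PSMC1 and PSMC6 do not. The gene-count values of these 7 are therefore uncertain. Their median log2 fold change was -0.03 by gene counts and -0.15 by expected counts, which put all 7 below 0. PSMA2, at 38 to 55 reads against 28 and 44, went from 0.45 to -0.09 and PSMC1 from 0.08 to -0.07. With expected counts 40 of 45 genes were negative, and PSMB2 and PSMB7 fell (adjusted p 0.0186 and 0.0436, edgeR). That is 4.44% of the proteasome genes, against 5.15% of all genes.

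Levels per length spanned a wide range, also among core and ATPase genes whose products enter the particle in equal number. PSMA4 and PSMB4 were highest, with means of 418 ± 39.0 and 405 ± 37.9 TPM (SD over 5 libraries), and PSMB1 followed at 370 TPM. PSMB2 (80.5 TPM) was the lowest constitutive beta gene and PSMA5 (96.8 TPM) the lowest of the constitutive alpha genes. Among ATPases PSMC1 (214 TPM) was highest and PSMC4 (58.5 TPM) lowest. PSMG4, PSMG3 and PSMD5 stood at 42.1, 41.7 and 40.4 TPM, below every structural gene of the constitutive particle, and PSMB10 at 15 TPM. PSMB8, PSMB9 and PSMA8 were under 1 TPM and PSMB11 is listed at 0. Of the 47 neighbouring pairs in this order, 9 had ranges that did not overlap, and 38 had ranges that did. Ranges were taken over the 5 libraries, so a pair that overlaps may still keep its order within each library. These 9 were the steps after PSMB1, PSMA7, PSMC1, PSMA2, PSMG2, PSMC4, PSMD5, PSMB10 and PSMA8.

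**Figure D4:**
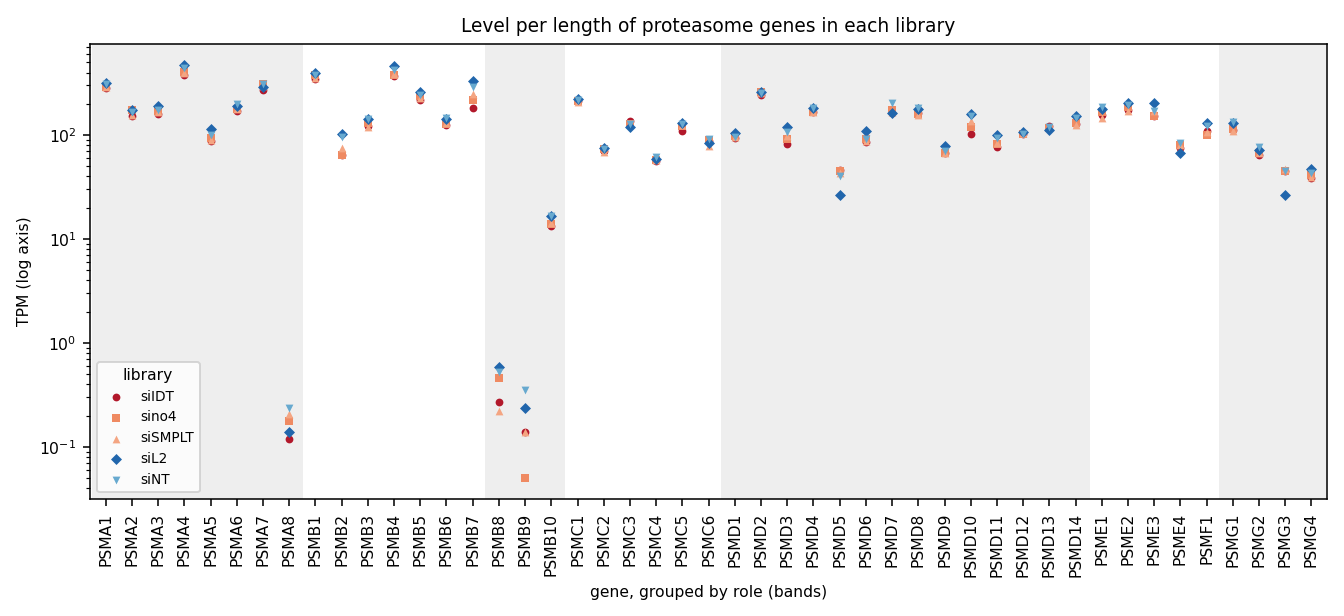
Points give TPM (log axis) of each library for the proteasome genes in bands by role; PSMB11, at 0 in every library, cannot be drawn. PSMA4 and PSMB4 are the highest genes, the inducible and germ-cell subunits far below, and siL2 falls below the other libraries for PSMD5 and PSMG3.

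The controls carry different siRNAs, and the proteasome genes differed little between them. They were at least 1.2-fold apart in 5 of the 45 genes (11.1%), against 38.0% of all genes. At or above a log2 CPM of 5 the count was 2 of 36 (5.56%), against 20.9%. PSMG3 was 1.59-fold and PSMD5 1.52-fold lower in siL2 than in siNT, and PSMA2, with few reads, 1.52-fold lower. PSMB10 and PSME3 were 1.29-fold and 1.21-fold higher in siL2. Without siNT, PSMD5 and PSMG3 passed the test as higher, with siL2 as the lone control.

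An siRNA can lower other transcripts whose 3' untranslated region (UTR) pairs with its seed, so 3 sequences of 7 bases were looked up in the 3' UTRs of 44 tested proteasome genes. PSME3 was not searched, because the transcript used ends at its stop codon. All 3 were taken from earlier results of these data, where their carriers were low in siL2 (GATCATC) or in the USP17 siRNA libraries (ATCACTC and TCACTCA), and the carriers' shifts are thus no independent evidence. GATCATC occurred in 5 of 44 proteasome genes (11.4%), against 5.5% of 12363 genes. PSMG3 and PSMD5, the genes with the greatest difference between the controls, both hold it. All 5 sites are shown, with the 7 bases in capitals, because these 2 genes have the highest positive fold changes of the cap and the assembly chaperones.
PSMG3 (chr7:1567521-1567527, minus strand): gttactaaGATCATCtgtgcatg
PSMD5 (chr9:120816558-120816564, minus strand): cccagattGATCATCtcccctgg
PSMC6 (chr14:52728131-52728137, plus strand): gttcataaGATCATCttcttaaa
PSMD12 (chr17:67339346-67339352, minus strand): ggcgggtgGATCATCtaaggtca
PSMF1 (chr20:1168297-1168303, plus strand): gagattcaGATCATCactttggt

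The windows are 5' to 3' on the transcript and come from GENCODE release 29 on GRCh38. The log2 difference of siNT over siL2 was 0.67 for PSMG3 and 0.60 for PSMD5, but 0.11 for PSMC6, -0.07 for PSMF1 and -0.16 for PSMD12, so carriers did not behave alike. Over all 679 carriers its median was 0.22, against 0.008 in other genes, and 19.4% of carriers were at least 1.5-fold lower in siL2, against 5.3%. A match of 7 bases is a description. No source used here gives the siRNA sequences. Whether siL2 acts on these sites was not tested.

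**Figure D5:**
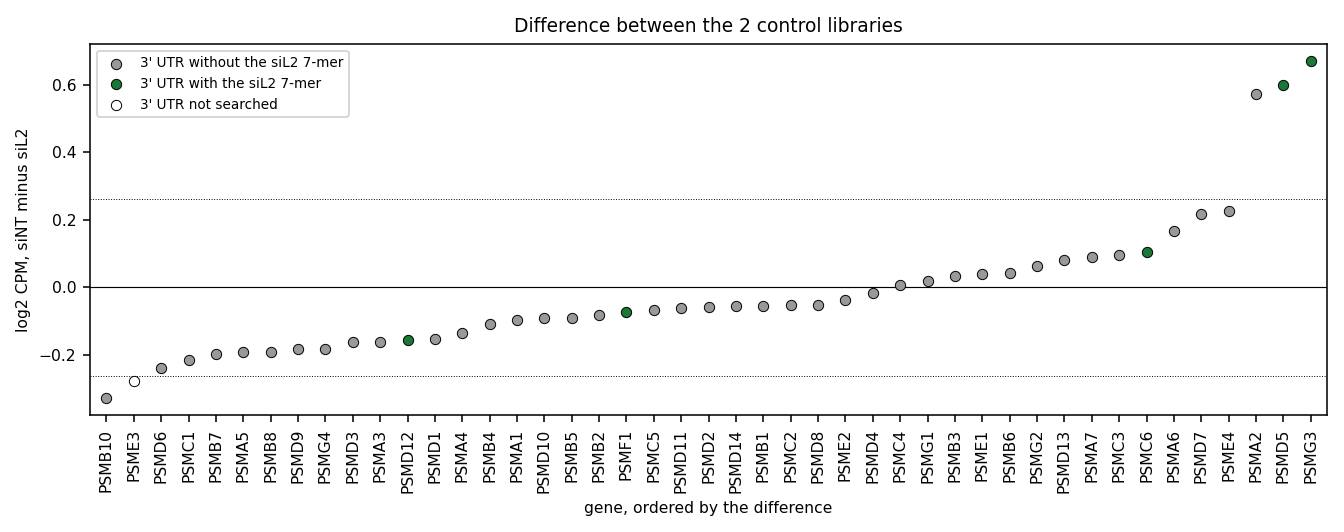
Points give the log2 CPM difference of siNT minus siL2 for the 45 tested genes in order of size, green where the 3' UTR holds the 7-base sequence of siL2-low genes, and dotted lines mark 1.2-fold. Most genes lie within the lines, and the 2 highest points, PSMD5 and PSMG3, are green.

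The sequences that marked low genes in the USP17 siRNA libraries occurred in no larger share of genes here than elsewhere. ATCACTC occurred in 1 of 44 proteasome genes (2.3%), PSMF1, against 7.1% of all genes, and TCACTCA in 4 (9.1%), against 10.9%. PSMB2, PSMB4 and PSMB7 hold neither. The 3' UTRs of the proteasome genes are short, with a median of 316 bases against 1120. The shares count genes and were not corrected for this length, so they do not compare frequency per base. Among the TCACTCA carriers PSMD10, PSMA5 and PSMA4 were among the lower genes of their groups and PSMF1 was not. Their sites are shown for that reason, with the 7 bases in capitals.
PSMD10 (chrX:108084538-108084544, minus strand): tttcaagcTCACTCAggcctacg
PSMA5 (chr1:109399739-109399745, minus strand): aaatatatTCACTCAaacatttt
PSMA4 (chr15:78551327-78551333, plus strand): ttccttccTCACTCAttcatcca
PSMF1 (chr20:1167600-1167606, plus strand): aagtggaaTCACTCAgtattatg

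Over all genes, carriers of TCACTCA had a median log2 fold change of -0.09 and other genes of -0.005. The part of these sites in the values of PSMD10, PSMA5 and PSMA4 was not tested.

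Promoters were searched for TGACNNNGC, the core of the antioxidant response element that NRF1 and NRF2 (NFE2L2) bind, on both strands (reverse form GCNNNGTCA). RefSeq promoters (GRCh38.p14, 250 bases before to 50 after the start) were matched for 42 of the 48 genes. The core was found in 13 (31.0%), against 15.3% of 11204 promoters of tested genes and 13.6% of all 27305. Examples from the lid, the beta ring, the activators and the assembly chaperones are shown with the core in capitals, read on the gene's strand.
PSMD3 (chr17:39980760-39980788, plus strand): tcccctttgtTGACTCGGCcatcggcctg
PSMB3 (chr17:38752627-38752655, plus strand): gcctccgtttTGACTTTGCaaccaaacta
PSME4 (chr2:53971009-53971037, minus strand): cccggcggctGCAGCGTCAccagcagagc
PSMG1 (chr21:39183616-39183644, minus strand): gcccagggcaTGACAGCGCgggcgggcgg

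In PSMD3 the core starts 37 bases before the annotated start and in PSME4 34 bases before it. The 12 tested genes with the core had a median log2 fold change of -0.13, and the 27 tested genes without it of -0.17. PSMB2 and PSMB4 lack the core in this window, and PSMB7 had no entry.

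The factors that control these genes showed no change past the test apart from NFYA. NFE2L1 measured 249, 252 and 233 CPM against 249 and 272 CPM (log2 fold change -0.09, adjusted p 0.461, edgeR), and NFE2L2 lay at 0.11 (0.501). NFYA, a subunit of the factor that binds CCAAT boxes, rose by 0.35 (0.0382). It was the single call among 12 regulators (median 0.08), where 4.64% of all genes were called higher. The 11 NRF2 targets outside the proteasome had a median of -0.25, 8 were negative, and none passed the test as higher. The median is the value of SRXN1, which had 43 to 70 reads and lay at -0.16 by expected counts. NQO1 (0.28), GCLM (0.20) and TXNRD1 (0.01) lay above 0 without passing. SLC7A11 in that list measured 80.3 to 97.5 CPM against 99.5 in siL2 and 236 in siNT, so siNT alone lay apart.

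Other parts and partners of the particle gave few calls. Over all genes, 4.64% were called higher and 5.82% lower. Of 13 further subunits, cofactors and assembly factors, UBE3C, a ubiquitin ligase at the proteasome, rose from 103 to 147 CPM (log2 fold change 0.51, adjusted p 0.0187, edgeR) and none fell (median -0.06). SEM1, a small lid subunit, lay at -0.19 (0.151), ADRM1, a ubiquitin receptor, at -0.09 (0.509), and the core assembly factor POMP at -0.04 (0.796). The deubiquitinases USP14 and UCHL5 lay at 0.04 and -0.06. The 14 shuttles and VCP factors, which bring ubiquitinated proteins to the cap, had a median of -0.01, and none rose. None of the 6 ubiquitin and E1 genes passed (median 0.08). Of 10 tested genes of cytosolic chaperones and proteotoxic stress, HSP90AB1 fell by 0.28 (0.0216) and none rose.

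Antigen processing genes held 3 calls among 16, all lower (median -0.18), where 5.82% of all genes were called lower. TAP1 and TAP2, the peptide transporter genes that lie beside PSMB8 and PSMB9 on chromosome 6, fell from 9.70 to 5.40 CPM and from 11.2 to 6.06 CPM. Their log2 fold changes were -0.85 and -0.89 (adjusted p 0.0232 and 0.017, edgeR), and with expected counts that of TAP2 was -0.57 (0.0404). NLRC5, an activator of class I genes, fell by 0.71 (0.0303). IRF1, which induces the immunoproteasome genes, measured 3.18, 3.72 and 3.03 CPM against 2.10 and 2.12 CPM, the opposite direction. The calls of UBE3C, NFYA, HSP90AB1, TAP1, TAP2 and NLRC5 were each lost without siIDT and without sino4, as those of the proteasome genes were. NFYA and HSP90AB1 also lost theirs without siSMPLT, and NFYA without siL2. For comparison, CTNNB1 (beta-catenin), the gene the series turns on, kept its call in every alternative run (log2 fold change -0.77, adjusted p 0.00215, edgeR).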

How the data were processed

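The submitters' processing notes name bcl2fastq 2.20, STAR 2.7.1a, RSEM 1.3.2 and the build GRCh38. The annotation release is not given in the sources used. No strand setting is given either. The deposited read count tables hold whole-number counts per gene, and reads on a gene's own strand were used. Rows naming no gene took 22.8% to 24.4% of reads and were left out. The deposited RSEM tables hold expected counts, rounded here to whole numbers, and TPM, both made by the authors.

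Groups were compared on the counts with edgeR 4.0.16 in R 4.3.3 (filterByExpr, minimum count 10 and minimum total 15, TMM scaling, two-sided quasi-likelihood F test, Benjamini-Hochberg adjustment at 0.05 over all genes tested), after a check on simulated data. The check recovered 1 of 200 genes changed 1.25-fold, 100 of 200 changed 1.5-fold and 147 of 200 changed 2-fold. A gene that did not pass may thus still have a small shift. CPM were scaled by TMM, and log2 CPM used a prior count of 2. Replicate numbers only name libraries, in accession order, and form no pairs. Alternatives were DESeq2 1.42.0 (size factors and Wald test), limma-voom (limma 3.58.1), other filters and counts, an adjusted p of 0.1 and leaving out each library. Tables and figures were made in Python 3.11.15.

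The proteasome genes and the lists were chosen with earlier results of these data known. Named by rule were every proteasome gene past the threshold, the 2 with the smallest p in each role group, those that failed the filter, a few partners and CTNNB1 whatever their values, and called genes of the partner, shuttle, ubiquitin, control, NRF2 target, antigen processing and chaperone lists. Other genes were named after their values were seen, and 2 genes under the rule are not reported here. Coordinates, overlaps and 3' UTRs came from GENCODE release 29 on GRCh38, with 1 transcript per gene. GATCATC was added after seeing the data. Marker lists of other cell types (neuroendocrine, leukocyte, fibroblast and endothelial) held 0 called genes, and their summed levels overlapped between the groups except for the endothelial list, which stayed under 1 CPM. The epithelial and intestinal sums, given in the report, did not overlap.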

Additional observations from a re-analysis of the deposited data

How the results depend on the processing

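The median log2 fold change of the proteasome genes kept its sign in all alternatives run, at -0.16 to -0.17 with other scalings, tests, filters and counts and -0.12 to -0.19 when 1 library was left out. The number of proteasome genes called lower was less stable. In place of 3 it was 5 with DESeq2's size factors (11.1%, against 6.08% of all genes), 8 with DESeq2's Wald test (17.8%, against 8.07%), 5 with counts taken without regard to strand (11.1%, against 6.01%) and 11 at an adjusted p of 0.1 (24.4%, against 9.88%), so the share stood above the background there. None of these settings called a proteasome gene higher. The number called lower was 4 with limma-voom (8.89%, against 5.67%) and 4 with a mean of at least 1 CPM (9.3%, against 7.17%). With no filter it was 2 (4.26%, against 2.59%), and with expected counts also 2 (4.44%, against 5.15%). When 1 library was left out, 0 to 10 were called lower and 0 to 2 higher. Without a control, the lone one is assumed to vary like the USP17 siRNA libraries. Over all genes, leaving out 1 library gave 80 to 1425 lower calls in place of 951 and 50 to 1384 higher calls in place of 759. Each such run loses the same residual degrees of freedom. Calls over all genes fell without any USP17 siRNA library and rose without either control, and the cause was not tested. Signs turned in 3 of the genes named by rule, none of them called, and over all 45 tested proteasome genes in 7, PSMA2, PSMB10, PSMC1, PSMD9, PSMD12, PSMD13 and PSME4, of which 0 were called in any setting. PSMB10, at 0.08, was at -0.26 with expected counts, -0.13 without regard to strand and -0.165 to 0.30 when 1 library was left out. On the same leave-outs NFE2L2 ranged from -0.021 to 0.246 and USP14 from -0.001 to 0.083, both lowest without siL2. No paired analysis was possible because the labels give no replicate numbers. The depth limits PSMB8, PSMB9, PSMB11 and PSMA8 most, which had at most 18 reads per library.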
